A study of Homo sapiens with 12 samples.

Results

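The genes described here encode the parts of the inflammasome and of the cell death it starts: the sensors NLRP3, NLRC4, NAIP, AIM2 and NLRP1, the adaptor PYCARD, the caspases CASP1, CASP4 and CASP5, and the pore-forming protein GSDMD. They were chosen by gene symbol, 10 of the 78932 genes in the count table, and each symbol stood in a single row. In the low-count filter 9 of the 10 passed and were tested, and NLRP1 did not.

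The cells were THP-1, an established human monocytic line grown from an acute leukaemia, in 4 groups of 3 libraries of polyadenylated RNA. CEL cells received lipopolysaccharide (LPS), ATP, cyclosporin A (a calcineurin inhibitor), eltrombopag (a thrombopoietin receptor agonist) and luspatercept (a ligand trap built from an activin receptor). CE cells received LPS, ATP, cyclosporin A and eltrombopag, LPS cells received LPS and ATP as a model of pyroptosis, and NC cells were the normal control. The study asked whether luspatercept added to the immunosuppressive drugs lowers pyroptosis of monocytes. No group received a drug without LPS and ATP, all cells were of a single line, and no label used here gives doses or exposure times.

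Inflammasomes are protein platforms that myeloid cells assemble in the cytosol when a sensor meets a danger signal. NLRP3 responds to potassium loss, as when ATP opens the P2X7 channel, NAIP and NLRC4 respond together to bacterial flagellin and secretion needles, AIM2 binds double-stranded DNA, and NLRP1 responds to proteases and to cellular stress. Most sensors recruit caspase-1 through the adaptor ASC, the product of PYCARD, while caspase-4 and caspase-5 bind LPS directly. These caspases cut gasdermin D, which opens pores in the membrane, and caspase-1 also matures the cytokines made from IL1B and IL18. In monocytes the transcription of several parts is known to be raised beforehand by Toll-like receptors and interferons, a step called priming. Messenger RNA, the quantity measured here, does not report assembly, cleavage or pore formation.

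Depth ran from 17737240 to 23183474 counts a library, with 21889 to 26274 genes detected. Libraries LPS 1 and NC 3 stood apart: ribosomal RNA took 9.73% and 10.7% of their TPM, against at most 0.0433% in the other 10 libraries. Leaving both out changed 2 calls on members, given below. Of 11 markers of monocytic cells, 10 reached 1 CPM in every group, with a summed level of 1989 to 2097 CPM in CEL, 2063 to 2130 in CE, 1650 to 1759 in LPS and 1177 to 1232 in NC. The markers did not move together. PTPRC, a general leukocyte marker and the most abundant of them in CEL, CE and LPS, averaged 1304 CPM in CEL, 1318 in CE, 731 in LPS and 412 in NC. LYZ averaged 20.3 CPM in CEL, 27.7 in CE, 142 in LPS and 595 in NC, and CD14 2.70 in CEL, 6.44 in CE, 44.0 in LPS and 0.872 in NC. CE 2 stood above CE 1 and CE 3 in CSF1R (132 CPM against 29.9 and 40.6), ITGAM (60.0 against 12.5 and 17.3) and SPI1 (24.1 against 2.66 and 4.10). In PTPRC it did not (1262 against 1339 and 1351). The part of these marker levels in the results below was not tested. Without CE 2, edgeR called 8204 genes between CE and LPS and 4146 between CEL and CE. With it the counts were 6972 and 3321. The markers of lymphocytes, of erythroid cells and of fibroblasts, epithelium and endothelium summed to at most 1.65 CPM in any library. Levels are compared between samples as CPM, which scales counts by library size and TMM factor, and between genes as TPM, which also divides by transcript length.

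In GENCODE 29 on hg38, NLRP3 lies at chr1:247416156-247449108 on the plus strand and AIM2 at chr1:159062484-159147096 on the minus strand. NLRC4 lies at chr2:32224453-32265854, NAIP at chr5:70968483-71025114, NLRP1 at chr17:5499427-5619424 and PYCARD at chr16:31201485-31203450, all on the minus strand. The inflammatory caspases are neighbours on the minus strand of chromosome 11: CASP4 at chr11:104942866-104969436, CASP5 at chr11:104994235-105023168 and CASP1 at chr11:105025443-105035250. CARD16, which encodes a CARD protein that binds caspase-1, follows at chr11:105041326-105101431.

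RefSeq promoter windows of 250 bases before a start site, on GRCh38.p14, were found for 6 of the 10 genes. Those of AIM2 and CASP5, the members with the largest differences between LPS and NC cells, and of NLRP3, which differed far less, are shown 5′ to 3′ up to the first annotated exon, with motif matches in capitals. The AIM2 stretch is chr1:159076902-159077016 (minus strand), the CASP5 stretch chr11:105023169-105023418 (minus strand) and the NLRP3 stretch chr1:247415923-247416155 (plus strand).
AIM2: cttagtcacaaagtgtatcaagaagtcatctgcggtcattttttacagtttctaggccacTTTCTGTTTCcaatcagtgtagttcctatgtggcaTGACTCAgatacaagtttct
CASP5: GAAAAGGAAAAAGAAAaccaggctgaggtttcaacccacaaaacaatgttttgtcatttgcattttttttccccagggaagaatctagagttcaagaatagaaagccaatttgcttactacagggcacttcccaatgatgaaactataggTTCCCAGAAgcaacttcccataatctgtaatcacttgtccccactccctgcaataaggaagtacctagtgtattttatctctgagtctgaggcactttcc
NLRP3: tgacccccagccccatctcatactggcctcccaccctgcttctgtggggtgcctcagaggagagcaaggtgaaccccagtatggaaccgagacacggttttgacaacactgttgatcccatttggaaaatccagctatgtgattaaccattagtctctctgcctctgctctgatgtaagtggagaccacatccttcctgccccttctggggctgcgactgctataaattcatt
The motifs searched, on both strands, were GAAA followed after any 2 bases by GAAA (the core of interferon-stimulated response elements, called ISRE core here), TTCNNNGAA (the core of STAT sites), TGANTCA (the core of AP-1 sites) and the NF-kB consensus. The ISRE core was found in AIM2, at -190 to -181 from the start, and as 2 overlapping matches in CASP5, at -250 to -241 and -244 to -235. It was found in 3.02% of 35116 promoter windows of the same length. CASP5 also held TTCNNNGAA at -100 to -92 and AIM2 TGANTCA at -155 to -149, motifs present in 6.57% of windows each. No match to the 4 motifs was found in the windows of NLRP3, NLRC4, CASP4 or PYCARD, and the NF-kB consensus, found in 9.96% of all windows, was in none of the 6 genes. A match describes letters and not a binding site, and a window without a match says nothing of the factor. The windows of CASP4 and CASP5 were identical at 181 aligned bases, 72.4% of the window, and the other pairs of members at 50.4% to 60.8%.

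**Figure D1:**
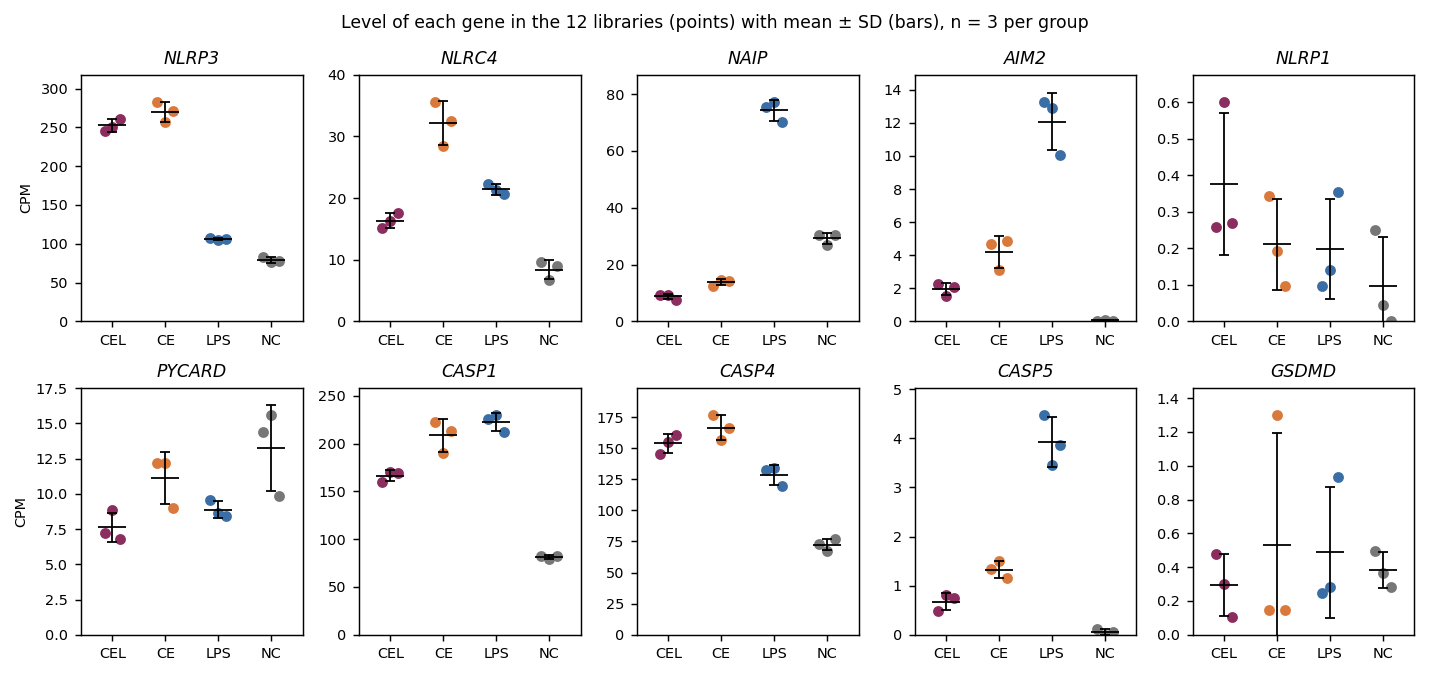
Level in CPM (vertical axis, linear, from 0) of each of the 10 genes in the 12 libraries, with groups CEL, CE, LPS and NC from left to right; points are libraries, long bars the mean and short bars the SD, n = 3. NLRP3 was high in CEL and CE, NAIP, AIM2 and CASP5 were highest in LPS, and NLRP1 and GSDMD stayed at or under 1.3 CPM in every library.

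NLRP3, the sensor that ATP engages, was present at 245 to 261 CPM in CEL, 257 to 283 CPM in CE, 104 to 107 CPM in LPS and 76.2 to 83.3 CPM in NC. CEL and CE libraries overlapped each other and lay above all LPS libraries, which lay above all NC libraries. The level in LPS was 1.34-fold that in NC (log2 0.42 ± 0.05 SE, adjusted p = 2.25e-05 in edgeR's quasi-likelihood test), a call lost in limma on log2(TPM + 1) without the filter on low values (0.58, adjusted p = 0.104). The larger differences lay between the drug groups and LPS: the level in CE was 2.55-fold that in LPS (1.35 ± 0.05, adjusted p = 3.34e-09, within-batch values 1.30 to 1.40) and in CEL 2.38-fold (1.25 ± 0.05, adjusted p = 2.68e-09, within-batch values 1.20 to 1.29). Against untreated cells NLRP3 was 3.19-fold higher in CEL and 3.41-fold higher in CE. CEL and CE did not pass the test against each other (-0.10, 95% interval -0.20 to 0.00, adjusted p = 0.162), though without CE 2 the value was -0.14 with an adjusted p of 0.0387. As each library pools a whole culture, a change in some of the cells and a change in all of them cannot be told apart.

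NLRC4 and NAIP, partners in a single inflammasome, went opposite ways when cyclosporin A and eltrombopag were added. NLRC4, which carries the caspase recruitment domain, had 15.2, 16.3 and 17.5 CPM in CEL, 35.6, 28.4 and 32.4 CPM in CE, 22.4, 21.4 and 20.6 CPM in LPS, and 9.59, 6.71 and 8.96 CPM in NC. The ranges of the groups were all separate, with CE the highest and NC the lowest. LPS cells had 2.55-fold the level of NC cells (1.35 ± 0.13, adjusted p = 6.38e-06), CE cells 1.50-fold that of LPS cells (0.58 ± 0.12, adjusted p = 0.00219), and CEL cells 1.97-fold less than CE cells (-0.98 ± 0.13, adjusted p = 0.000252). That fall between CEL and CE passed in all 16 alternatives run, with within-batch values of -1.23 to -0.80. NLRC4 was also lower in CEL than in LPS, by 1.31-fold (-0.39 ± 0.13, adjusted p = 0.0196). This smaller difference was lost without CEL 1, CEL 2 or LPS 1 (adjusted p 0.0704, 0.0501 and 0.0653), without LPS 1 and NC 3 together (0.144), and in limma on log2 TPM.

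NAIP, the ligand-binding member of the pair, had 9.48, 9.32 and 7.68 CPM in CEL, 12.6, 14.6 and 14.1 CPM in CE, 75.5, 77.2 and 70.2 CPM in LPS, and 30.5, 27.0 and 30.4 CPM in NC. Every LPS library lay far above the rest, and both drug groups lay below untreated cells. The LPS level was 2.53-fold that of NC (1.34 ± 0.09, adjusted p = 3.03e-07). CE lay 5.39-fold under LPS (-2.43 ± 0.09, adjusted p = 6.66e-09, within-batch values -2.58 to -2.31) and CEL 8.40-fold under LPS (-3.07 ± 0.10, adjusted p = 9.04e-10, within-batch values -3.19 to -2.99). CE was 2.13-fold and CEL 3.31-fold lower than NC, and CEL 1.56-fold lower than CE (-0.64 ± 0.09, adjusted p = 0.000639), the last lost in the limma alternatives. Per length, the ratio of NLRC4 to NAIP was 2.80 to 3.56 in CEL, 3.20 to 5.57 in CE, 0.48 to 0.561 in LPS and 0.551 to 0.66 in NC. NLRC4 thus exceeded NAIP in every CEL and CE library and lay under it in every LPS and NC library. NAIP shares sequence with pseudogenes: 43.9% of the 50-base windows of its transcripts also occur in other genes, 35.5% in AC140134.1. The counts given to AC140134.1 were 20.8 to 33.4 in CEL, 37.1 to 48.5 in CE, 146 to 228 in LPS and 45.0 to 76.2 in NC. These counts do not bound the error in NAIP, as reads of the shared windows may have been given to NAIP or to the other genes.

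AIM2, the DNA sensor, was nearly absent from untreated cells. It had 2.25, 1.55 and 2.10 CPM in CEL, 4.68, 3.08 and 4.87 CPM in CE, 13.3, 12.9 and 10.1 CPM in LPS, and 0.0415, 0.0913 and 0.0571 CPM in NC. The ranges of the groups were all separate, in the order LPS, CE, CEL and NC. Over 3 libraries LPS held 769 counts and NC 4, a scaled ratio of 191 (counting interval 74.2 to 702), or 7.45 ± 0.33 on the fitted log2 scale (adjusted p = 7.39e-09). CE was 2.87-fold lower than LPS (-1.52 ± 0.21, adjusted p = 9.56e-05), with within-batch values of -2.05 to -1.05. CEL was 6.11-fold lower than LPS (-2.61 ± 0.22, adjusted p = 1.46e-06) and 2.13-fold lower than CE (-1.09 ± 0.22, adjusted p = 0.00403). The difference between CEL and CE was lost when only those groups were fitted (adjusted p = 0.0598) and in limma. Even so, CEL and CE cells kept more AIM2 than NC cells, with count ratios of 31.4 (12.0 to 117) and 66.7 (25.8 to 247). AIM2 reached the cutoff of the low-count filter in 0 NC libraries, so its differences from NC were fixed by the filter. NLRP1 had 6, 12 and 5 counts in CEL, 7, 4 and 2 in CE, 2, 3 and 8 in LPS, and 6, 1 and 0 in NC, too few to pass the filter. CEL and NC libraries of NLRP1 did not overlap in CPM, and their count ratio was 3.38 (1.41 to 9.33), an interval that leaves out the spread between libraries.

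PYCARD, the adaptor that links sensors to caspase-1, was the only member lower in LPS than in NC. It had 7.18, 8.82 and 6.82 CPM in CEL, 12.2, 12.2 and 8.96 CPM in CE, 9.58, 8.61 and 8.43 CPM in LPS, and 14.4, 15.6 and 9.82 CPM in NC. NC 3 lay close to the LPS libraries and apart from NC 1 and NC 2. PYCARD was 1.50-fold lower in LPS than in NC (-0.58 ± 0.18, adjusted p = 0.0219), a call lost without LPS 2, LPS 3, NC 1 or NC 2 (adjusted p 0.0637 to 0.0961) and in limma (up to 0.559). The firmer difference was between CEL and NC, 1.74-fold lower in CEL (-0.80 ± 0.18, adjusted p = 0.00222), lost only in limma among the alternatives run. CE did not pass against NC (-0.26, adjusted p = 0.237), but without NC 3 the value was -0.47 with an adjusted p of 0.0269, without LPS 1 and NC 3 together 0.0357, and with upper quartile factors 0.0193. CEL against CE gave -0.55 ± 0.18 with an adjusted p of 0.0526, -0.54 with an adjusted p of 0.022 where the replicate number was a block, and -0.61 with an adjusted p of 0.0198 without the filter on low counts. Neither CE (0.32, interval -0.08 to 0.73) nor CEL (-0.22, interval -0.63 to 0.18) passed against LPS. Of PYCARD's 50-base windows, 54.6% lie on the antisense gene PYCARD-AS1, and no source used here states whether the counting used strand, so reads of the pair may be mixed. The deposited table gave PYCARD-AS1 0 to 90.0 counts per library.

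**Figure D2:**
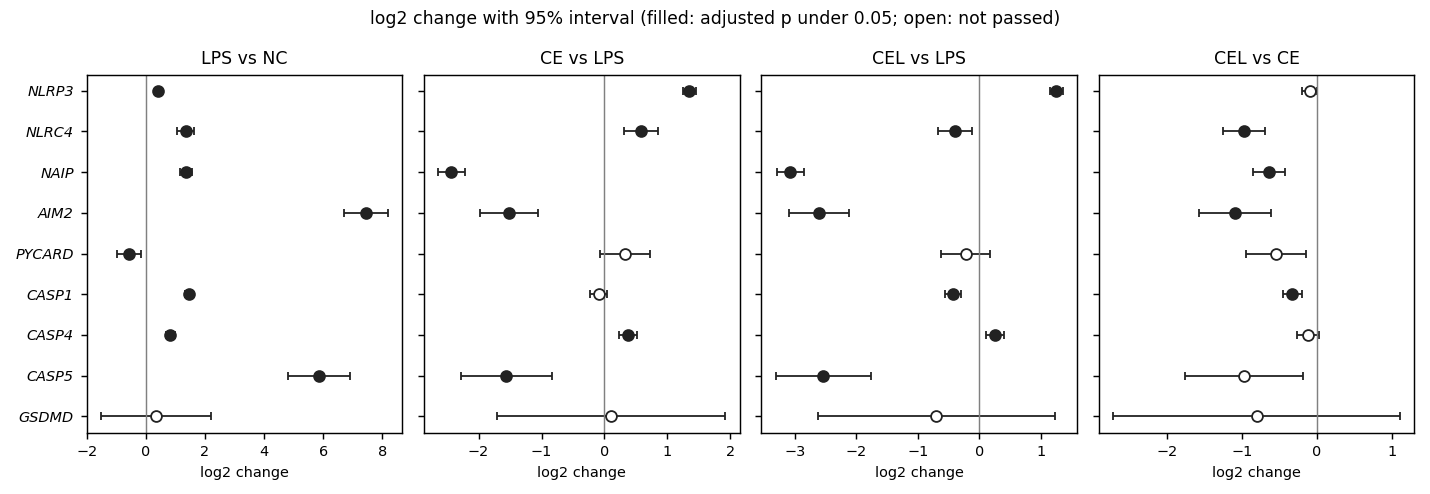
Change on the log2 scale (horizontal axis) with its 95% interval for the 9 tested genes in 4 comparisons, one panel each; filled points passed at an adjusted p under 0.05 and open points did not. AIM2 and CASP5 lay far right in LPS against NC and left of 0 in the other panels, while NLRP3 lay right of 0 in both comparisons of drug-treated cells with LPS.

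CASP1, the caspase that matures IL-1 beta, had 160 to 170 CPM in CEL, 190 to 223 CPM in CE, 212 to 230 CPM in LPS and 79.3 to 82.7 CPM in NC. CEL libraries lay under all CE and LPS libraries, CE and LPS overlapped, and NC lay lowest. The level in LPS was 2.73-fold that in NC (1.45 ± 0.06, adjusted p = 3.50e-09). CEL was 1.34-fold lower than LPS (-0.42 ± 0.06, adjusted p = 7.69e-05, within-batch values -0.50 to -0.33) and 1.25-fold lower than CE (-0.33 ± 0.06, adjusted p = 0.00197). The difference from CE was lost without CE 3 (adjusted p = 0.084), with only those groups fitted (0.122) and in limma. The difference from LPS was also lost in all 3 limma fits (adjusted p 0.0773 to 0.169). CE against LPS gave -0.09 (interval -0.22 to 0.03, adjusted p = 0.212), and CASP1 passed as lower in CE with upper quartile factors (-0.27, adjusted p = 0.00667) and with library size alone (-0.25, adjusted p = 0.00159). These scalings shifted the median of all genes by -0.17 and -0.15. CASP1 was still 2.04-fold higher in CEL and 2.56-fold higher in CE than in NC.

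CASP4, which senses LPS in human cells, had 146 to 161 CPM in CEL, 157 to 176 CPM in CE, 120 to 134 CPM in LPS and 67.7 to 76.7 CPM in NC. CEL and CE overlapped and lay above LPS, which lay above NC. It was 1.78-fold higher in LPS than in NC (0.83 ± 0.07, adjusted p = 1.40e-06) and 1.29-fold higher in CE than in LPS (0.37 ± 0.07, adjusted p = 0.000628, within-batch values 0.23 to 0.48). In CEL it was 1.20-fold higher than in LPS (0.26 ± 0.07, adjusted p = 0.0059), a small difference lost with upper quartile factors (0.147) and without the filter on low counts (0.395). The difference between CE and LPS was lost with only those groups fitted (0.0655), and both were lost in limma. CEL against CE did not pass (-0.11, interval -0.26 to 0.03). CASP4 thus kept its rise in the drug-treated cells, where it was 2.13-fold (CEL) and 2.30-fold (CE) the level of NC.

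CASP5, the second human LPS-binding caspase, had the group order of AIM2 and not that of its neighbour CASP4. It had 0.476, 0.802 and 0.752 CPM in CEL, 1.33, 1.49 and 1.16 CPM in CE, 4.47, 3.45 and 3.86 CPM in LPS, and 0.125, 0 and 0.0571 CPM in NC. All 4 groups were separate, in the order LPS, CE, CEL and NC. LPS held 251 counts over 3 libraries and NC 4, a scaled ratio of 62.2 (counting interval 24.0 to 230.2), or 5.84 ± 0.48 on the fitted log2 scale (adjusted p = 1.52e-06). CASP5 reached the cutoff of the low-count filter in 0 NC libraries, so this difference was fixed by the filter. CE was 2.95-fold lower than LPS (-1.56 ± 0.33, adjusted p = 0.00199) and CEL 5.80-fold lower than LPS (-2.54 ± 0.35, adjusted p = 7.56e-05). CEL held 41 counts and CE 82, and the difference of -0.97 ± 0.36 did not pass (adjusted p = 0.0744). The only shared 50-base windows of CASP5 were with CASP4, 0.576% of its windows. CARD16, which lies beyond CASP1 in the cluster, was 1.72-fold higher in LPS than in NC (0.78 ± 0.06). It was 1.30-fold lower in CE than in LPS (-0.38 ± 0.06) and 1.65-fold lower in CEL than in LPS (-0.72 ± 0.06). Between CEL and CE it was 1.27-fold lower in CEL (-0.35 ± 0.06). CARD16's call between CE and LPS was lost in limma (adjusted p 0.147 to 0.331). Its call between CEL and CE was lost in limma (0.578 to 0.659), with only those groups fitted (0.093) and without the filter on low counts (0.0533). The 4 tested genes of the cluster all rose with LPS and ATP, and in edgeR CASP4 was the one of them called higher in CE and in CEL than in LPS. Of CARD16's windows, 10.6% are shared with CASP1.

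GSDMD (chr8:143553207-143563062, plus strand), the pore protein cut by these caspases, was near the detection limit in all 4 groups. It had 11, 6 and 2 counts in CEL, 3, 27 and 3 in CE, 5, 6 and 21 in LPS, and 12, 8 and 5 in NC, which is 0.108 to 1.30 CPM. CE 2 and LPS 3 stood apart from the other libraries of their groups. No comparison passed (adjusted p 0.529 to 0.927), and the 95% intervals are wide: the log2 difference of LPS from NC lay between -1.52 and 2.20 and that of CEL from LPS between -2.62 and 1.23. With these counts and this spread a difference of 2-fold or less in GSDMD was not detectable. GSDMD passed the filter through CE 2, LPS 3 and NC 1 only. Its longest transcript is 64.8% G and C, a share at percentile 99.2 of the 13247 tested genes with a value. Over the 105 tested genes at or above that share, the median log2 level against the other libraries of the same group was 1.12 in CE 2, 0.41 in LPS 3 and 0.34 in CEL 1, and -0.60 in CE 1, -0.48 in CE 3 and -0.31 in CEL 3. GSDMD itself stood at 2.96 in CE 2, 1.73 in LPS 3 and 1.25 in CEL 1, and at -1.46 in CE 1, -1.50 in CE 3 and -1.58 in CEL 3. The libraries high in GSDMD were thus those high in GC-rich genes, and the part of this in the GSDMD values was not tested. PYCARD, with 61.7% G and C (percentile 96.4), differed from it: in CE 2 it stood at 0.22.

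**Figure D3:**
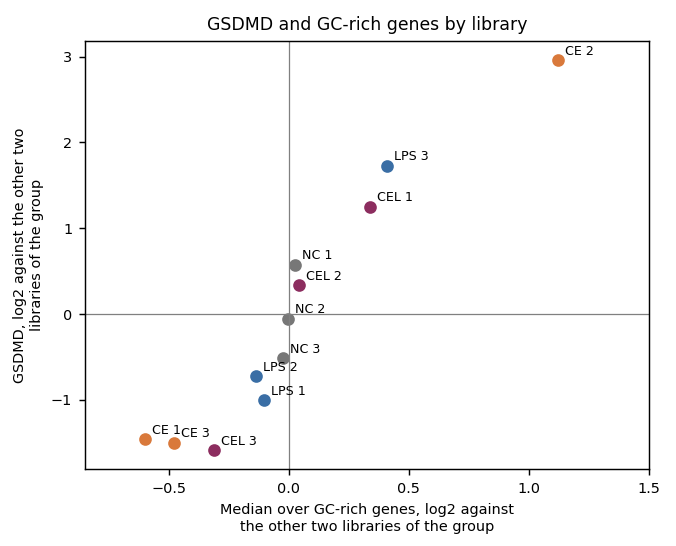
Median log2 level of the 105 GC-rich genes in a library against the other libraries of its group (horizontal axis) and the same for GSDMD (vertical axis); each point is a library, coloured by group. CE 2 lies at 1.12 and 2.96, top right, and CEL 3, CE 1 and CE 3 lie bottom left.

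Set against each other per length, CASP1, CASP4 and NLRP3 led the members in CEL, CE and LPS, and CASP4 and CASP1 led in NC. NLRP3 averaged 36.1 TPM in LPS, under CASP4 at 141, and 23.8 TPM in NC, under PYCARD at 27.8. CASP1, CASP4 and NLRP3 together held 92.1% to 93.2% of the summed TPM of the 10 genes in CEL, 89.0% to 90.7% in CE, 84.9% to 86.1% in LPS and 79.4% to 84.1% in NC. CASP4 averaged 174 TPM in CEL, 183 in CE, 141 in LPS and 72.2 in NC, and CASP1 148 TPM in CEL, 174 in CE, 197 in LPS and 67.2 in NC. Within libraries the order of these caspases differed between groups: the ratio of CASP1 to CASP4 was 0.844 to 0.857 in CEL, 0.918 to 0.979 in CE, 1.35 to 1.44 in LPS and 0.877 to 0.973 in NC. PYCARD, at 15.8 to 35.7 TPM over the 12 libraries, stood between NLRP3 and the scarcer sensors except in NC, where its range overlapped that of NLRP3. NLRC4, NAIP and AIM2 lay between 1.5 and 20.01 TPM in the groups given LPS. In CEL and in CE the ranges of NAIP and AIM2 overlapped, and in LPS those of PYCARD and NAIP and those of AIM2 and NLRC4. CASP5, GSDMD and NLRP1 closed the order in CEL, CE and LPS, with overlapping ranges of CASP5 and GSDMD in CEL and CE. In NC the ranges of GSDMD, AIM2, CASP5 and NLRP1 overlapped from each to the next. TPM of CASP1, CASP4 and NLRP3 is the lowest of its group in LPS 1 and in NC 3, the libraries rich in ribosomal RNA, which leaves the order within a library as it is.

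**Figure D4:**
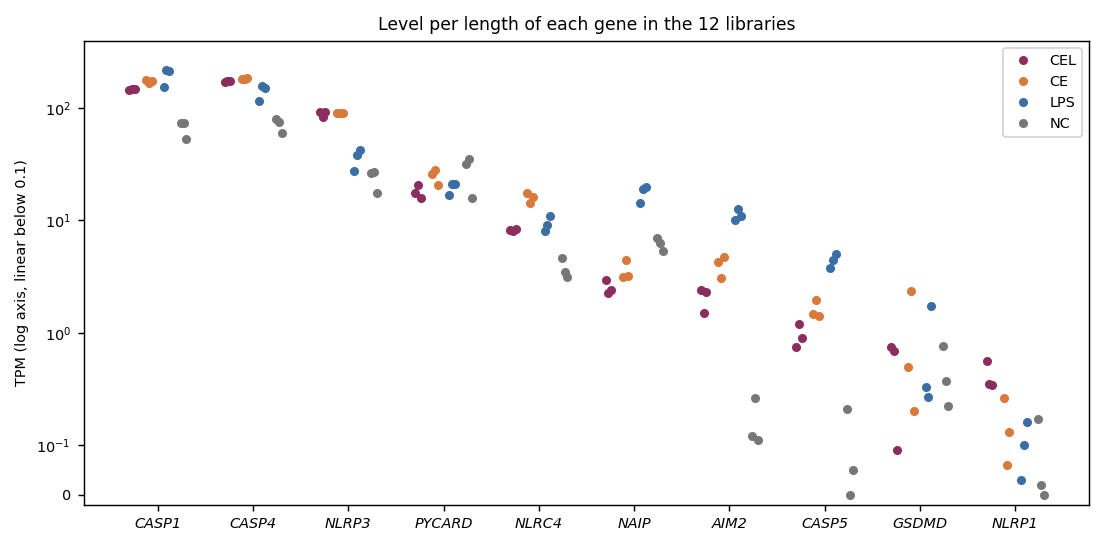
Level per length in TPM (vertical axis, log scale, linear below 0.1) of the 10 genes in the 12 libraries, ordered by overall level, with points coloured by group in the order CEL, CE, LPS and NC. CASP1, CASP4 and NLRP3 stand above the rest in CEL, CE and LPS, and AIM2 and CASP5 drop to 0.26 TPM or less in NC.

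LPS with ATP raised most of the inflammasome genes over untreated cells. Of the 9 tested members 8 passed, 7 higher and 1 (PYCARD) lower, where 45.9% of the 14065 tested genes passed, 22.4% higher and 23.5% lower. The balance of all calls moved with the processing: 48.8% of the called genes were higher with TMM factors, 37.3% with upper quartile factors, 63.7% without the filter on low counts and 70.0% to 74.9% in limma. AIM2 and CASP5 passed the filter through the groups given LPS alone, so their difference from NC was fixed by the filter. With AIM2 and CASP5 included, the members' median was 1.34 on the log2 scale and that of all tested genes -0.01. The libraries of 8 members, AIM2 and CASP5 among them, did not overlap, as for 62.5% of all tested genes. Among 17 tested genes that regulate assembly, 14 were higher, 1 lower and 2 not passed, with a median of 1.63. These include TRIM31, with 0 counts in every NC library, and GBP1, with 2, 7 and 10. The difference of TRIM31 from NC was thus fixed by the filter too. The 4 regulators with the smallest p were GBP2 (5.40) and GBP5 (7.55), interferon-induced GTPases, TNFAIP3, an inhibitor of NF-kB (3.99), and PANX1, a channel that releases ATP (2.31). The other sensors gave 4 higher, 1 lower and 5 not passed of 10, with IFI16, a DNA-binding neighbour of AIM2, 28.8-fold higher (4.85 ± 0.07), CARD8 at 0.36, NOD2 at 2.19 and MEFV at 2.46. MEFV was scarce, with 139 counts over the LPS libraries and 25 over the NC libraries. It lost its call without NC replicate 3 and LPS replicate 1 together (edgeR adjusted p = 0.0548). Of 9 transcription factors that act on such genes, 6 were higher and 1 lower, with IRF9 (3.06), STAT2 (2.24) and IRF2 (1.31) among the higher. The other executioners of cell death were mixed, 6 higher, 3 lower and 4 not passed of 13, with MLKL, the necroptosis pore (1.41), and RIPK1 (1.01) higher and CASP2 (-0.69) lower. CARD8 and CASP2 lost their calls in all 3 limma fits, and MEFV and NOD2 in limma without the filter, at adjusted p-values of 0.0566 to 0.149.

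Cyclosporin A with eltrombopag split the set. Of the 9 tested members 6 passed between CE and LPS, with NLRP3, NLRC4 and CASP4 higher and NAIP, AIM2 and CASP5 lower, where 49.6% of all tested genes passed, 28.8% higher and 20.7% lower. Of the called genes 58.2% were higher with TMM factors, 42.4% with upper quartile factors, 44.2% with library size alone and 63.3% to 63.6% in limma. Over the 6 comparisons, upper quartile factors shifted the median of all genes by -0.28 to 0.04 and library size alone by -0.16 to 0.04. No called member changed direction under these scalings. The members' median was 0.11, beside 0.08 for all tested genes. Among the assembly regulators 6 were higher, 4 lower and 7 not passed: TNFAIP3 (1.45), TXNIP, a binding partner of NLRP3 (1.14), NEK7, the kinase that NLRP3 needs to assemble (0.92), and GBP3 (0.71) were higher. The other sensors gave 2 higher (CARD8 at 0.61 and NLRP12 at 1.78), 0 lower and 8 not passed. NLRP12 was scarce, with 64 counts over the CE libraries and 19 over the LPS libraries. The transcription factors gave 4 higher and 3 lower, with IRF2 (1.13) and IRF9 (0.76) higher and IRF8 (-1.19) and STAT2 (-0.55) lower. Of the other executioners 3 were higher and 5 lower, among them CASP2 (0.43) and GSDME (0.98) higher and MLKL (-0.43) and CASP8 (-0.72) lower. CARD8, CASP2, MLKL and CASP8 lost their calls in all 3 limma fits, and GBP3, NLRP12 and STAT2 in limma without the filter, at adjusted p-values of 0.0661 to 0.401. The substrate IL1B did not pass (-0.20, adjusted p = 0.0747). It passed as lower in CE with upper quartile factors (-0.37, adjusted p = 0.00582), with library size alone (-0.35, adjusted p = 0.00203) and without CE replicate 1 (-0.27, adjusted p = 0.0189) in edgeR.

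With luspatercept as well, 7 of the 9 members passed between CEL and LPS, where 55.9% of all tested genes passed, 28.7% higher and 27.2% lower. Of the called genes 51.3% were higher with TMM factors, 41.8% with upper quartile factors, 43.6% with library size alone, 42.3% without the filter on low counts and 60.9% to 63.6% in limma. NLRP3 and CASP4 were higher, and NLRC4, NAIP, AIM2, CASP1 and CASP5 lower. The members' median was -0.42, against -0.03 for all tested genes. Of the assembly regulators 5 were higher, 8 lower and 4 not passed, with TNFAIP3 (1.83) and TXNIP (1.62) higher and CARD16 (-0.72) and SERPINB1, a protease inhibitor that restrains the inflammatory caspases (-0.92), lower. Of the other sensors, 1 (CARD8, 0.56) was higher and 2 lower, IFI16 (-0.62) and NLRC5 (-1.42). NLRC5 lost its call without CEL replicate 1 or 2, or LPS replicate 1 or 3, at an edgeR adjusted p of 0.0504 to 0.0621, and in 2 of the limma fits (0.0554 and 0.105). The transcription factors again gave 4 higher and 3 lower, with IRF2 (1.20) and IRF9 (0.95) higher and STAT2 (-1.30) lower. The other executioners gave 5 higher and 4 lower, including CASP2 (0.46) higher and RIPK1 (-0.76) and MLKL (-0.68) lower. RIPK1 lost its call in 2 limma fits, and IFI16, CASP2 and MLKL in limma without the filter, at adjusted p-values of 0.0501 to 0.0825. IL1B was lower (-0.89, adjusted p = 3.71e-06) and IL18 higher (1.07). IL18 was also higher in CE than in LPS (0.92, edgeR adjusted p = 2.15e-05), and CEL did not pass against CE (0.16, edgeR adjusted p = 0.311). LPS cells had less IL18 (-1.01) and more IL1B (9.91) than NC cells. Against NC, IL18 did not pass in CEL (0.07) or CE (-0.09), while IL1B stayed higher in CEL (9.02) and CE (9.71). The comparisons of CE and of CEL with LPS share the LPS libraries, and that of LPS with NC shares them too.

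The comparison of CEL with CE asks what luspatercept adds to the other drugs. Here 4 of the 9 members passed, all lower (NLRC4, NAIP, AIM2 and CASP1), where 23.6% of all tested genes passed, 8.78% higher and 14.8% lower. Over the alternatives 1 to 5 members were called, with NLRC4 alone in each of the 3 limma fits. Of the called genes 37.2% were higher with TMM factors, 47.4% with library size alone, 18.2% without the filter on low counts, 49.4% without CE replicate 3 and 34.6% to 53.6% in limma. The members' median was -0.64, against -0.09 for all tested genes, and the libraries of 6 members did not overlap, as for 34.7% of all tested genes. NLRP3 and CASP4, which were higher in CE than in LPS, did not pass here. Of the assembly regulators 3 were higher, 8 lower and 6 not passed. P2RX7, the ATP-gated channel upstream of NLRP3, was 1.97-fold lower in CEL, at 4.73 to 5.67 CPM in CEL and 9.50 to 11.7 CPM in CE (-0.98 ± 0.12, adjusted p = 0.000222). TRIM31 (-2.17) and GBP2 (-0.55) were also lower and TXNIP (0.49) higher. TRIM31 was scarce, with 24 counts over the CEL libraries and 110 over the CE libraries. IFI16 (-0.49) was the only sensor outside the members that passed, and it was lower. STAT2 (-0.75) was lower and IRF8 (0.28) higher, with 6 of the 9 transcription factors not passed. The other executioners gave 3 higher and 4 lower, with GSDME (-0.58), RIPK1 (-0.40) and MLKL (-0.25) among the lower. IL1B was 1.61-fold lower in CEL than in CE (-0.69 ± 0.08, adjusted p = 0.000175). With only the CEL and CE libraries fitted, IRF8, GSDME, RIPK1 and MLKL lost their calls, at edgeR adjusted p-values of 0.0576 to 0.18. Single libraries also ended the calls of MLKL (CEL replicate 2 or CE replicate 3) and of IRF8 (CEL replicate 1 or 2, or CE replicate 1), at 0.0512 to 0.11. None of the list genes named here kept its call in all 3 limma fits. P2RX7 stood there at adjusted p-values of 0.266 to 0.36, with -0.46 on the log2(TPM + 1) scale, and IL1B at 0.0653 to 0.133.

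**Figure D5:**
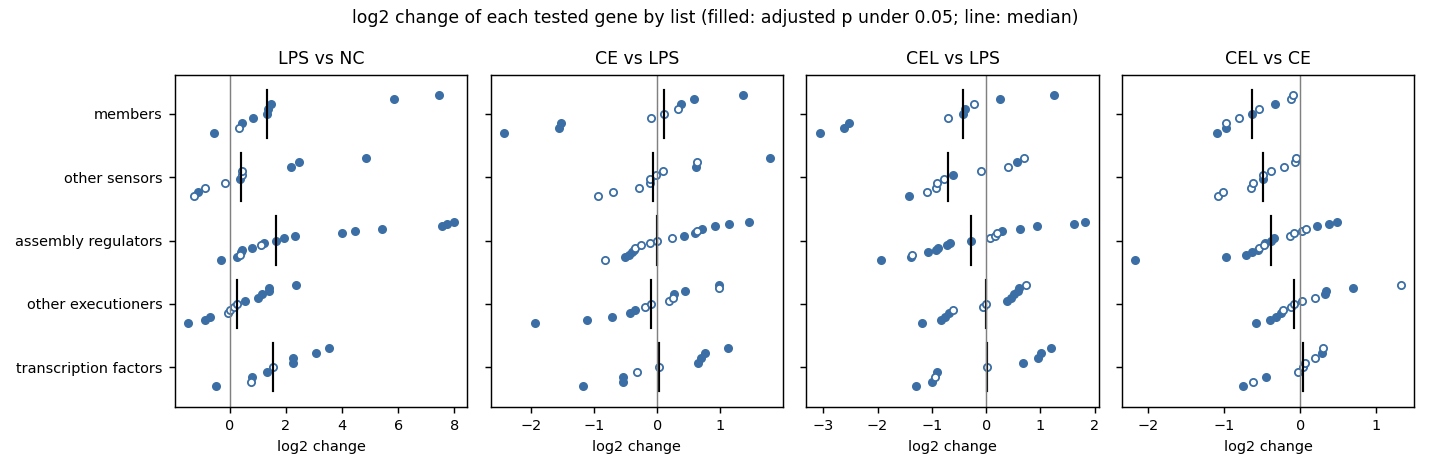
Change on the log2 scale (horizontal axis) of each tested gene in the members and in 4 lists of related genes, in 4 comparisons; filled points passed at an adjusted p under 0.05, open points did not, and the vertical bar is the median of the list. Assembly regulators and transcription factors lie mostly right of 0 in LPS against NC, with medians of 1.63 and 1.55, and on both sides of 0 in the drug comparisons.

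Both drug groups differed from untreated cells. Against NC, 8 members passed in CEL (6 higher, 2 lower), where 67% of all tested genes passed (34% higher, 33% lower), and 7 in CE (6 higher, 1 lower), where 64% passed (34.6% higher, 29.4% lower). The higher ones in both were NLRP3, NLRC4, AIM2, CASP1, CASP4 and CASP5, and the lower ones NAIP in both and PYCARD in CEL. AIM2 and CASP5 reached the cutoff of the filter in 0 NC libraries, so their differences from NC were fixed by the filter here too. The medians that follow include both genes. The members' median was 1.03 in CEL and 1.36 in CE, beside 0.00 and 0.09 for all tested genes. With upper quartile factors 39.7% of the called genes were higher in CEL and 38.7% in CE, against 50.7% and 54.1% with TMM factors. In limma the share was 64.8% to 66.1% in CEL and 65.3% to 68.6% in CE.

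Likeness to each member was ranked by Pearson's r of log2 CPM over the 12 libraries, among genes averaging 3 or more on that scale. The libraries fall into 4 groups and share them, so r is a description without a p. PAK1, CSGALNACT2 and DYM were nearest to NLRP3 (r = 0.998 each). NEDD4, TCF4 and SLC39A11 were nearest to NLRC4 (0.979 to 0.984), and SLC7A2, S100A8 and ATR to NAIP (0.984 to 0.992). ADAMDEC1, HESX1 and MTF1 were nearest to AIM2 (0.994 to 0.995), and TOR1B, HERC5 and CXCL1 to CASP5 (0.983 to 0.986). TMSB4X and TRIM5 were among the nearest to CASP1 (0.995 each), and XAGE1A, RCBTB2 and DNAJC10 to CASP4 (0.996 to 0.997). The likeness was lower for PYCARD, with NDUFS8, VPS28 and FIBP at 0.856 to 0.882, and for GSDMD, with SEC24C and USP22 at 0.937 to 0.942.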

How the data were processed

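The authors deposited estimated counts per gene on hg38, per the submitters' processing notes: 29.3% of nonzero values are not whole within 0.005, and 42745 of the 78932 genes carry a symbol. The authors also deposited TPM and FPKM tables, and the FPKM was not used. No source used here gives the aligner, counting tool, strand setting or annotation. Columns were matched to the labels by name and number, and 0 were left over. The columns named only as treated were taken as CE, the remaining group, and every value for CE rests on this.

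Estimated counts were rounded. edgeR 4.0.16 (filterByExpr with a minimum count of 10, TMM factors) kept 14065 genes, and 1 quasi-likelihood fit over the 12 libraries, with group as the term, gave two-sided tests adjusted by Benjamini and Hochberg over all tested genes; a gene is called at an adjusted p under 0.05. The biological coefficient of variation was 20.13%, with 8 residual degrees of freedom. Standard errors were derived from the F statistic of each change. Intervals of count ratios are exact and cover counting error only. The labels do not say that the samples came from separate cultures, so p-values cover the spread between samples alone, which may be technical. The fit was also run on simulated data in which a small set of genes was changed in the LPS group alone. Those data had no outlying libraries and few changed genes, unlike the libraries here. The run therefore does not show how the fit behaves under such conditions. Alternatives were DESeq2 1.42.0, other scalings, no filter, limma 3.58.1 on log2(TPM + 1 or + 0.1), only the 2 groups compared, a replicate block and leaving out libraries; leaving out NC 3 with LPS 1 was added after seeing the data.

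The labels give a batch number equal to the replicate number, so the numbers pair samples. Over 7460 genes, 6 of 18 same-numbered pairs had deviations from their group means correlated over 0.1 (-0.86 to 0.73), and 1 of 12 libraries was nearest to its own number.

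Members and lists were chosen with earlier results of these data known. All members are named, and from each list up to 4 genes per comparison with the smallest p among those called, besides IL1B and IL18. Some genes that the rule names are not reported here. CARD16 stands also as part of the caspase cluster, and AC140134.1 and PYCARD-AS1 were named after their values were seen, as sharing sequence. TRIM31 and GBP1 in LPS against NC were also named after their values were seen, for their low counts in NC. Shared windows and GC content are from GENCODE 29, and promoters from RefSeq.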

Additional observations from a re-analysis of the deposited data

How the results depend on the processing

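Of 909 values for the tested members under the alternatives, 844 kept direction and side of the threshold, 42 lost the call, 8 gained it and 15 changed sign, all 15 for GSDMD. Of the 40 called changes, 30 were never lost. The replicate block changed 1 call, PYCARD in CEL against CE (-0.54, adjusted p = 0.022), and no other member call.

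GSDMD, never called, changed sign in CE against LPS with upper quartile factors (-0.0947), library size alone (-0.0468), only the 2 groups (-0.0226), the replicate block (-0.13) and without NC 3 and LPS 1 together (-0.24), and without single libraries ranged from -1.71 to 0.99. It changed sign in CEL against NC with limma on log2(TPM + 1), with and without the filter (0.0413), and without single libraries ranged from -0.89 to 0.0117. Such ranges were -1.34 to 1.02 for CEL against CE, -1.36 to 0.88 for CE against NC, -0.54 to 0.65 for LPS against NC and -1.23 to 0.18 for CEL against LPS. The 212 values of list genes, those called plus IL1B and IL18, gave 3562 under the alternatives: 3150 kept direction and side, 395 lost the call, 5 gained it and 12 changed sign. Against NC, IL18 in CEL changed sign with upper quartile factors (-0.18) and library size alone (-0.0556), and without single libraries ranged from -0.0431 to 0.16. In limma on log2(TPM + 1), with and without the filter, and on log2(TPM + 0.1), sign changed for IL18 in CE (0.0860 and 0.0894) and for BRCC3 (0.0337 and 0.0353) and CASP2 (0.0337 and 0.0358) in CEL.

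Genes called numbered 6458 for LPS against NC in edgeR and 2858, 2776 and 2346 in limma on log2(TPM + 1), log2(TPM + 0.1) and log2(TPM + 1) without the filter. In that order they were 6972 and 3424, 3339 and 2528 for CE against LPS, 7867 and 4873, 4821 and 4212 for CEL against LPS, and 3321 and 247, 208 and 179 for CEL against CE. CE against NC had 9008 in edgeR and 5429 in limma without the filter. Members called numbered 4 in CEL against LPS and 1 in CEL against CE in all 3 limma fits, against 7 and 4 in edgeR. With only the 2 groups, CEL against CE gave 1231 genes and 2 members. The cause was not tested. Low counts limit what can be said of GSDMD and NLRP1 in all groups and of AIM2 and CASP5 in NC.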
